A study of Mus musculus with 4 samples.

Results

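The genes of the T cell receptor complex, its coreceptors and the kinase that acts with them were described here in CD11b+Ly6g+ cells sorted from mouse lung. They were chosen by gene symbol with earlier results of these data known, as were the gene lists below. Shares of all genes set beside their counts are therefore a description only. All 10 symbols were found among the 54532 genes of the count table. The 10 genes were Cd3e, Cd3d, Cd3g and Cd247, the receptor constant genes Trac, Trbc1 and Trbc2, the coreceptors Cd4 and Cd8a, and Lck. Each passed the filter of 10 counts in at least 1 library, as did 16369 genes in all.

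The study asked how peptides act on the lung before metastasis, in the pre-metastatic niche (PMN). All mice were C57BL/6, 6 to 8 weeks old, and received 300 µl of melanoma-conditioned medium (MCM) by intraperitoneal injection on 10 consecutive days and B16F10 melanoma cells by tail vein on day 7, and lungs were taken on day 10. The Ctrl group was PMN model mice without peptide, and the other groups received TP5, sFD17 or FR17 under the skin from day 3, each at 40 µM per kg per day. TP5 is free thymopentin, a pentapeptide used as an immune modulator. FR17 carries the TP5 sequence on a branched peptide that assembles itself after cleavage by the protease MMP2, and sFD17 is the same construct with the pentapeptide scrambled, used as a control for assembly. No group without MCM was analysed here, so each comparison is between mice that all carried the model. Each group was 1 library from cells pooled over 10 to 12 mice, so the spread between mice was not measured, no test over replicates was possible, and every interval below covers counting error only. The sorting gate was CD11b+Ly6g+, and no antibody against a T cell antigen was named in the protocol.

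The T cell receptor binds antigen through an α and a β chain, whose constant parts are encoded by Trac and by Trbc1 or Trbc2, and it signals through the CD3 γ, δ and ε chains (Cd3g, Cd3d, Cd3e) and the ζ chain (Cd247). The coreceptors CD4 and CD8 bind major histocompatibility complex molecules and bring the kinase Lck to the receptor, where it phosphorylates the CD3 and ζ chains. As a set these genes mark T cells, though not all of them are confined to T cells. Granulocytes, the cells that a CD11b+Ly6g+ gate is meant to collect, are not the usual source of these transcripts. CD4 is also found on some myeloid cells, and ζ chain and Lck on natural killer (NK) cells.

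The libraries held between 15543071 counts (sFD17) and 19638228 counts (FR17). The marker genes of neutrophils, among them S100a8, Csf3r and Ly6g, took 3.30% of all counts in Ctrl, 3.78% in TP5, 3.74% in sFD17 and 3.52% in FR17. None of the 12 was at 0 in a library. Itgam, which encodes CD11b, had between 5711 and 6924 counts, and Ly6g had between 1234 and 2081. The 10 receptor genes took far less. Their counts summed to 1023 in Ctrl, 914 in TP5, 488 in sFD17 and 2610 in FR17. As counts per 1000000 library counts (CPM), the sum was 59.7 (95% Wilson interval 56.2 to 63.5) in Ctrl, 53.3 (49.9 to 56.8) in TP5, 31.4 (28.7 to 34.3) in sFD17 and 133 (128 to 138) in FR17. FR17 therefore stood highest and sFD17 lowest, with no overlap of these intervals between either of them and any other library. In bulk RNA, fewer T cells in a sort and less receptor RNA per cell cannot be told apart.

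The positions of the genes bear on how their reads could be counted. Coordinates are those of the count table, which for all 10 genes were also those of GENCODE release M21 on the mouse build GRCm38. Cd3g (chromosome 9 from 44969572 to 44980431, minus strand), Cd3d (chromosome 9 from 44981786 to 44987339, plus strand) and Cd3e (chromosome 9 from 44998740 to 45009627, minus strand) lie together within 40056 bases. Only 1354 bases separate Cd3g from Cd3d, which point away from each other, and 11400 bases separate Cd3d from Cd3e. Trbc1 (chromosome 6 from 41538218 to 41539881) and Trbc2 (chromosome 6 from 41546730 to 41548352) are 6848 bases apart on the plus strand of the β locus. Cd8a (71373427 to 71379173, plus strand) and Cd4 (124864692 to 124888221, minus strand) are on the same chromosome 6. Trac is on chromosome 14 from 54220521 to 54224206 and Cd247 on chromosome 1 from 165788681 to 165877277, both on the plus strand, and Lck is on chromosome 4 from 129548344 to 129573641 on the minus strand.

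The sequences of Trbc1 and Trbc2 are shown because the pair is near-identical and a read may not tell them apart. The coding parts are 521 bases each and differ at 23 positions, so 95.6% of bases are the same. The first exon, 375 bases, holds 1 of the differences, and the 146 coding bases after it hold 22. The longest stretch without a difference is 259 bases. The end of each coding sequence, bases 376 to 521 counted from the first annotated coding base, follows 5′ to 3′ as given by GENCODE for GRCm38, with the bases that differ between the pair in capitals.
Trbc1: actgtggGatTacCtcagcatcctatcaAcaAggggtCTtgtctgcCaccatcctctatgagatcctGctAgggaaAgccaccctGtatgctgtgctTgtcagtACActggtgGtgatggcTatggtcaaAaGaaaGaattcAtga
Trbc2: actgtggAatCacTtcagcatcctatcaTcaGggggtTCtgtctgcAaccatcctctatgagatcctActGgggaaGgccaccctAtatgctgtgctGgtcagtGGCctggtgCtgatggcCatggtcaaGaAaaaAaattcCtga
Within the coding sequence, a read that reaches neither these capitals nor the 1 position in the first exon fits both genes. The non-coding exon bases were not compared. How reads that fit both genes were counted is not given in the sources used here, so the counts of each, and their sum where such reads were left out, are uncertain.

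The promoters of the CD3 cluster are shown because Cd3e, Cd3d and Cd3g are neighbours whose folds differed. RefSeq promoter sequences (build GRCm38.p6, 250 bases before to 50 bases after the start) were found for 6 of the 10 genes, Cd3e, Cd3d, Cd3g, Cd247, Cd8a and Lck, the last with 2 starts. Below, each is written 5′ to 3′ on the strand of its gene, with matches of the ETS core AGGAAG and of E-boxes (CANNTG, where N is any base), read on both strands, in capitals.
Cd3e, chr9:45009562-45009861, minus strand: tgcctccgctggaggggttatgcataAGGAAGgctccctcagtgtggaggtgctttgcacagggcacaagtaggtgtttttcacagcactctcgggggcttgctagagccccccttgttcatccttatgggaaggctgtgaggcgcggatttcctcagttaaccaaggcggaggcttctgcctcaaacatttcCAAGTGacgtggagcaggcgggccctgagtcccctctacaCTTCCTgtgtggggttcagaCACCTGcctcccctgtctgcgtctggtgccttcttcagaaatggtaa
Cd3d, chr9:44981536-44981835, plus strand: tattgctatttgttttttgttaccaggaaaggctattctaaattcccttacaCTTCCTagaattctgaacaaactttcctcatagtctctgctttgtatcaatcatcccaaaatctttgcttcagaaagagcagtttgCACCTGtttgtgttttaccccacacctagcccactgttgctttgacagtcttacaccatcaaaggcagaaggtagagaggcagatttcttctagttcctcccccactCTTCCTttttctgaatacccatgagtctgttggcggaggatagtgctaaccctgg
Cd3g, chr9:44980382-44980681, minus strand: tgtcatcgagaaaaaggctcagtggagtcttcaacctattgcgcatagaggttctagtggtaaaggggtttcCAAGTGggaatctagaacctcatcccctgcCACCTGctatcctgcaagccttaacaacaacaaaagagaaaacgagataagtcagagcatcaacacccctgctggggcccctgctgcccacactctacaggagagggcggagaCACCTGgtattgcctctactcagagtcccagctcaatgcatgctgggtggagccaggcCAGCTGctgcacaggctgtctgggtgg
Cd3e held 2 ETS cores and 2 E-boxes, Cd3d held 2 ETS cores and 1 E-box, and Cd3g held 0 ETS cores and 4 E-boxes. Among all 32851 promoters of the same length, 35.4% held the ETS core and 72.3% an E-box. The RUNX letters TGTGGT, found in 16.8% of all promoters, were in none of the 3. The same held for the letters TATAAA of a TATA box, found in 13.6%. The GATA-factor letters AGATAA, found in 11.2%, occurred once, in Cd3g. A match is a stretch of letters and says nothing of binding.

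Levels between genes were compared per length, as CPM scaled by the trimmed mean of M values (TMM) and divided by exon length in kilobases. Trbc2 was the highest of the 10 in every library, at 9.58 in Ctrl (95% Poisson interval 7.89 to 11.5), 9.47 in TP5 (7.82 to 11.4), 5.47 in sFD17 (4.06 to 7.22) and 18.9 in FR17 (16.8 to 21.2). The gene after it was Cd4 in Ctrl, Trbc1 in TP5 and FR17, and Trac in sFD17, and in sFD17 the intervals of Trbc2 and Trac overlapped. In Ctrl, Cd4 at 5.84, Trac at 5.07, Trbc1 at 4.74 and Cd3d at 3.13 followed, each overlapping the next in this order. Lck stood at 2.14 in Ctrl, overlapping Cd3d above it. The lower end was Cd3g at 0.924, Cd247 at 0.689, Cd3e at 0.450 and Cd8a at 0.440, and neighbours there overlapped as well. Cd8a was also the lowest of the 10 in FR17, at 0.707, where Cd247 above it at 1.27 did not overlap. The place of Cd4 moved most between libraries, from rank 2 in Ctrl to rank 5 in TP5, 6 in sFD17 and 4 in FR17.

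**Figure D1:**
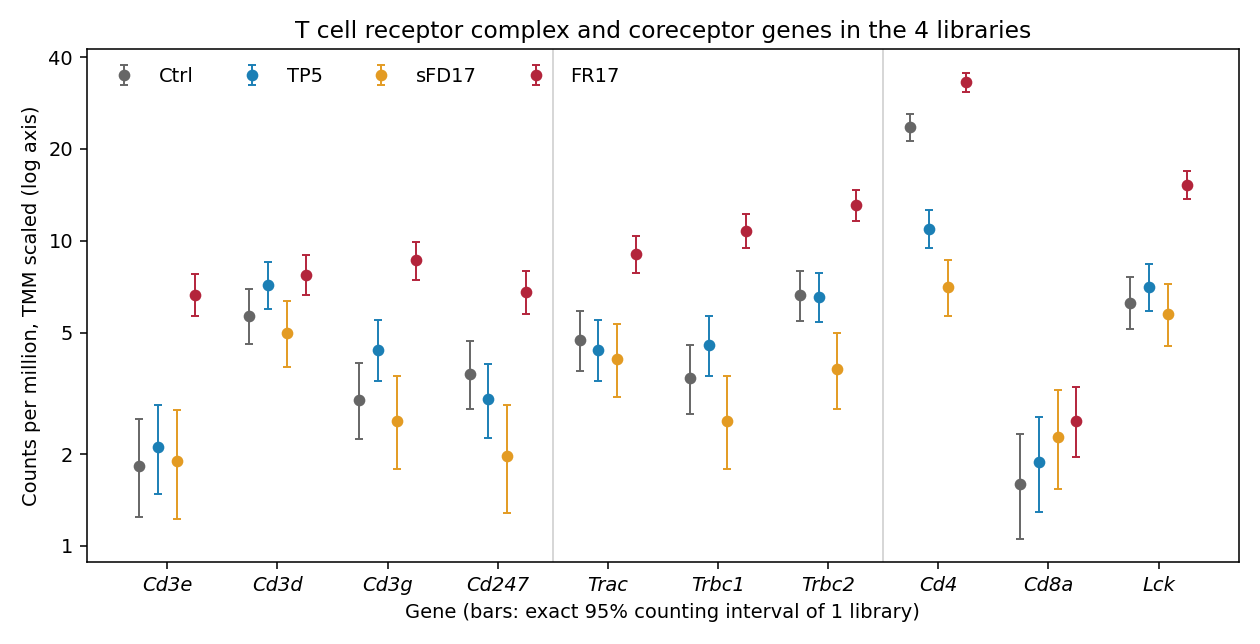
TMM scaled CPM (log axis) of each of the 10 genes in the Ctrl, TP5, sFD17 and FR17 libraries, with exact 95% Poisson intervals of a single library as bars. FR17 is the highest library for every gene. Its interval overlaps those of TP5 and Ctrl for Cd3d, and all 4 intervals overlap for Cd8a.

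Among the signaling chains, Cd3e was the most different between libraries. Cd3e, the ε chain, had 31 counts in Ctrl, 37 in TP5, 25 in sFD17 and 153 in FR17. FR17 stood alone above 3 similar libraries, and the fold against Ctrl was 3.63 (exact 95% counting interval 2.46 to 5.53). Cd3g, the γ chain, had 51 counts in Ctrl, 77 in TP5, 34 in sFD17 and 198 in FR17. Here too FR17 was far above the rest, at 2.86-fold of Ctrl (2.09 to 3.97), and TP5 stood above Ctrl by 1.45-fold with an interval that begins just past 1 (1.01 to 2.11). Cd3d, the δ chain, had 96 counts in Ctrl, 126 in TP5, 66 in sFD17 and 178 in FR17. In FR17 it had the lowest fold of the 4 chains, at 1.36 (1.06 to 1.77), and in TP5 it stood at 1.26-fold (0.962 to 1.67). The ratio of Cd3d to Cd3e counts was accordingly 3.10 in Ctrl (2.05 to 4.80), 3.41 in TP5 (2.34 to 5.05) and 2.64 in sFD17 (1.64 to 4.37) but 1.16 in FR17 (0.932 to 1.45), whose interval lay below the other 3. Both genes are neighbours on chromosome 9.

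Cd247, the ζ chain, had 62 counts in Ctrl, 53 in TP5, 26 in sFD17 and 156 in FR17. It was highest in FR17, at 1.85-fold of Ctrl (1.37 to 2.53), and lowest in sFD17, at 0.537 (0.326 to 0.861). Of its 5329 exon bases 3007 are shared with Pou2f1 on the opposite strand, a transcription factor gene with 225, 244, 228 and 263 counts in Ctrl, TP5, sFD17 and FR17, and 206 with Gm16565 on the same strand. The library kit kept the strand, but whether the counting used it is not given in the sources used here, so the level of Cd247 is uncertain. Cd3e shares 135 exon bases with Gm48719, which had at most 3 counts. Over the 4 chains together the summed counts were 240 in Ctrl, 293 in TP5, 151 in sFD17 and 685 in FR17. This was 2.10-fold of Ctrl in FR17 (1.81 to 2.44).

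The constant genes of the receptor were also highest in FR17. Trac, the constant part of the α chain, had 80 counts in Ctrl, 77 in TP5, 54 in sFD17 and 208 in FR17, which was 1.91-fold of Ctrl (1.47 to 2.51). Trbc1 had 60, 80, 34 and 248 counts in Ctrl, TP5, sFD17 and FR17, and Trbc2 had 112, 115, 50 and 300. FR17 was again far above the other libraries for all 3 genes, by 3.04-fold of Ctrl for Trbc1 (2.29 to 4.10) and 1.97-fold for Trbc2 (1.58 to 2.47). In sFD17 Trbc2 was at 0.571 of Ctrl (0.401 to 0.804), while for Trac and Trbc1 the intervals spanned 1. Trbc2 had 1.87 times the counts of Trbc1 in Ctrl (1.35 to 2.60) and 1.21 times in FR17 (1.02 to 1.44), and these intervals overlap. Summed over the 3 genes, FR17 was 2.21-fold above Ctrl (1.91 to 2.56), sFD17 stood at 0.701 of Ctrl (0.565 to 0.866) and TP5 at 1.04 (0.873 to 1.24).

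Cd4 had the most counts of the 10 genes and a pattern of its own. It had 398 counts in Ctrl, 192 in TP5, 93 in sFD17 and 760 in FR17. Ctrl stood well above TP5 and sFD17, unlike for the CD3 chains, and the fold against Ctrl was 0.465 in TP5 (0.389 to 0.553), 0.299 in sFD17 (0.236 to 0.376) and 1.41 in FR17 (1.24 to 1.59). Cd4 made up 38.9% of the counts of the 10 genes in Ctrl (95% Wilson interval 36.0 to 41.9), 21.0% in TP5 (18.5 to 23.8), 19.1% in sFD17 (15.8 to 22.8) and 29.1% in FR17 (27.4 to 30.9). Marker genes of macrophages had a like order. The 12 macrophage genes, among them those of the complement C1q chains and Mrc1, summed to 106566 counts in Ctrl, 89234 in TP5, 30469 in sFD17 and 186173 in FR17, with none at 0. Against Ctrl their scaled sum was 0.806 in TP5 (0.799 to 0.814), 0.366 in sFD17 (0.361 to 0.371) and 1.29 in FR17 (1.28 to 1.30). In sFD17 7 of the 12 were past 2-fold lower, against 6.47% of all genes tested. The part of macrophages in the Cd4 counts was not tested.

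Cd8a, which encodes the CD8 α chain, had the lowest mean count of the 10 genes, though in sFD17 Cd3e and Cd247 had fewer, at 25 and 26. Cd8a had 27 counts in Ctrl, 33 in TP5, 30 in sFD17 and 59 in FR17. Only in FR17 did the interval of the fold against Ctrl lie above 1, and only just, at 1.61 (1.00 to 2.64). Cd8b1, the gene of the CD8 β chain, had 25 counts in Ctrl, 18 in TP5, 24 in sFD17 and 62 in FR17. Its fold in FR17 was 1.82 (1.13 to 3.03). The ratio of Cd4 to Cd8a counts was 14.7 in Ctrl (9.98 to 22.6), 5.82 in TP5 (4.01 to 8.69), 3.10 in sFD17 (2.03 to 4.85) and 12.9 in FR17 (9.88 to 17.1). Ctrl and FR17 lay above TP5 and sFD17 on this ratio, with no overlap between these pairs. Lck, the kinase bound by both coreceptors, had 106 counts in Ctrl, 124 in TP5, 76 in sFD17 and 350 in FR17. It was like the CD3 chains rather than like Cd4, with Ctrl, TP5 and sFD17 overlapping and FR17 at 2.43-fold of Ctrl (1.95 to 3.05).

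**Figure D2:**
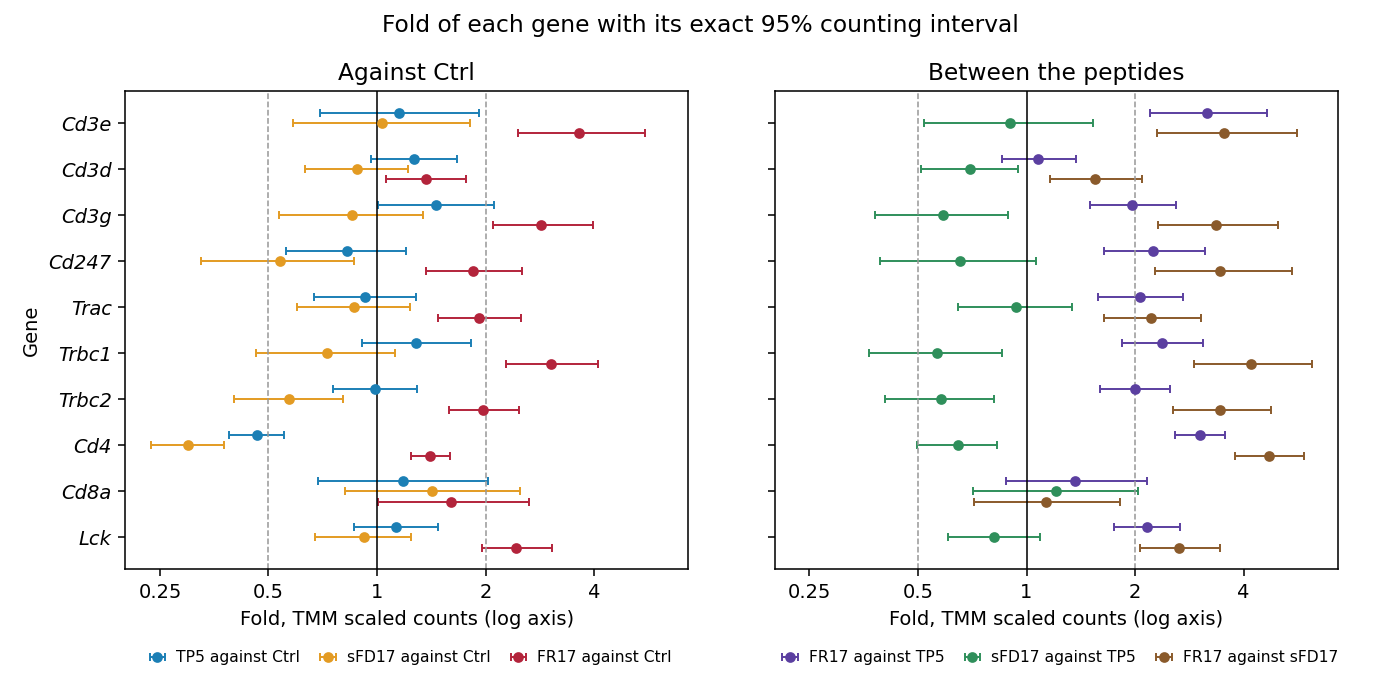
Fold of each gene on TMM scaled counts (log axis) against Ctrl (left) and between the peptide groups (right), with exact 95% counting intervals as bars, a solid line at 1 and dashed lines at 0.5 and 2. All 10 FR17 points lie to the right of 1 on the left, and Cd4 is the only gene left of 0.5, in TP5 and sFD17.

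With 1 library a group, a gene was counted as past 2-fold when its log2 CPM, TMM scaled and with a prior count of 2, differed by at least 1. In FR17 against Ctrl 4 of the 10 genes were past 2-fold higher (Cd3e, Trbc1, Cd3g and Lck) and 0 lower. Over all genes tested 3.92% were past 2-fold higher and 3.58% lower, and among the 5873 genes with a mean count in the range of the 10, from 37.3 to 361, 1.89% were higher. Counting intervals of the fold lay above 1 for all 10 genes, against 28.4% of the genes in that range. The median log2 fold change of the 10 was 0.94, from 0.44 for Cd3d to 1.80 for Cd3e, beside a median of 0.02 over all genes tested and 0.14 in the range. The exact test of edgeR at an unadjusted threshold of 0.05, with the dispersion taken over the 4 libraries as 1 group, counted the same 4 genes, against 1.88% of all genes, and 0 of the 10 after Benjamini-Hochberg adjustment. It compares 2 libraries, uses the same counts as the folds and is no test of the treatment. The scaled sum over the 10 was 1.88-fold of Ctrl (1.75 to 2.02), and 2.18-fold (1.99 to 2.39) without Cd4. When libraries were scaled by their totals alone the median of all genes moved to 0.26 in FR17 and −0.23 in sFD17, and 7 of the 10 genes were then past 2-fold higher in FR17.

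Against the same Ctrl library, TP5 had 0 of 10 genes past 2-fold higher (3.2% of all genes) and 1 lower, Cd4 (4.99% of all genes, 3.27% in the range). The exact test also counted 1 gene, Cd4, against 1.98% of all, and 0 after Benjamini-Hochberg adjustment. The median log2 fold change was 0.18, beside 0.02 for genes in the range. Intervals lay above 1 for 1 gene, Cd3g (16.4% in the range), and below 1 for 1, Cd4 (16% in the range), so outside Cd4 the share was near that of other genes. The scaled sum was 0.860 of Ctrl (0.786 to 0.942) with Cd4 and 1.11 (0.998 to 1.24) without it, so its direction turned on Cd4. For the other 9 genes the data leave room for folds from 0.560, the lower bound of Cd247, to 2.11, the upper bound of Cd3g.

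In sFD17 against Ctrl 0 genes were past 2-fold higher (5.32% of all genes) and 1 lower, again Cd4 (6.47% of all genes, 5.81% in the range), and the exact test counted that gene alone, against 4.83% of all, and 0 after adjustment. Intervals lay below 1 for 3 genes, Cd4, Trbc2 and Cd247, against 27.3% in the range, so this count was near the background. The median log2 fold change was −0.21, beside −0.13 for genes in the range. The scaled sum was 0.611 of Ctrl (0.547 to 0.681), and 0.809 (0.711 to 0.919) without Cd4. Scaled by library totals alone, 2 genes were past 2-fold lower, Cd4 and Cd247.

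**Figure D3:**
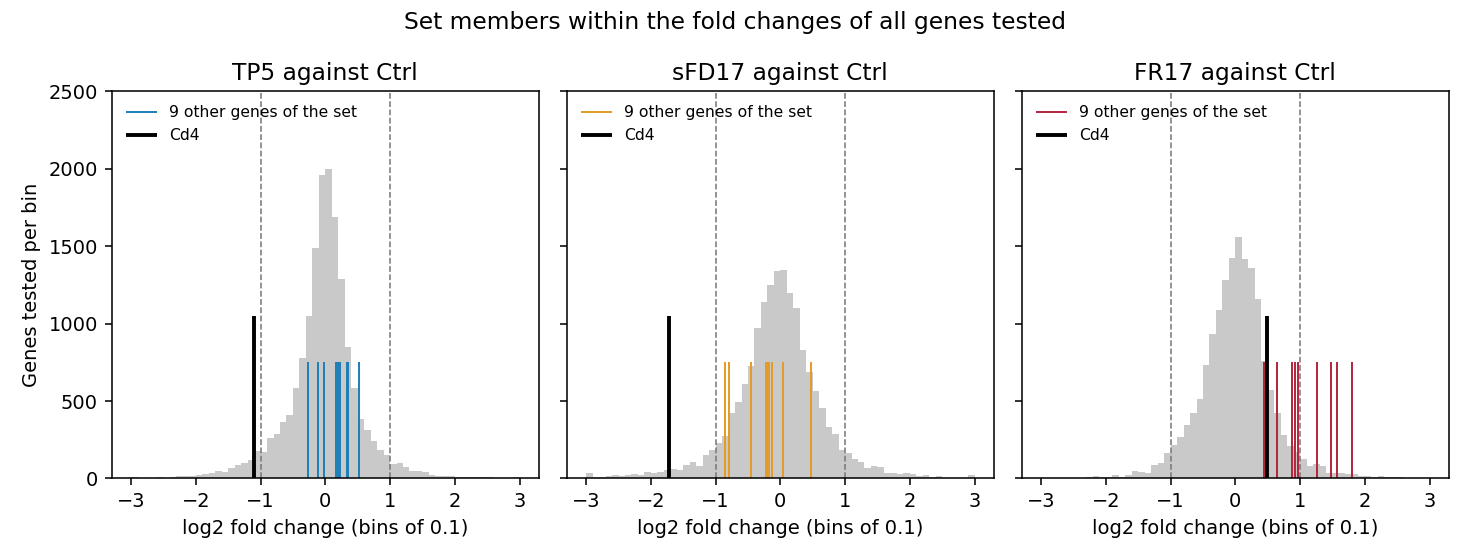
Number of genes tested per bin of 0.1 in log2 fold change against Ctrl (grey, values beyond 3 drawn in the end bins), with the 10 receptor genes as vertical lines and dashed lines at a log2 fold change of 1 either way. In TP5 and sFD17 the 9 genes other than Cd4 lie within the bulk of all genes and Cd4 lies left of −1, while in FR17 all 10 lie at 0.44 or further right.

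The 3 peptides were given at the same dose over the same days, so their libraries were compared in the remaining 3 of 6 pairs, all of which reuse the same 4 libraries. FR17 and TP5 share the TP5 sequence and differ in the assembling branched carrier. FR17 was past 2-fold higher than TP5 for 6 of the 10 genes (Cd3e, Cd247, Trac, Trbc1, Cd4 and Lck), against 7.04% of all genes tested and 5.93% in the range. Cd4 at 3.03-fold (2.58 to 3.56) and Cd3e at 3.16-fold (2.19 to 4.66) differed most. Intervals lay above 1 for 8 genes (26.6% in the range), and those of Cd3d, at 1.08 (0.854 to 1.37), and Cd8a, at 1.37 (0.878 to 2.16), spanned it. The summed ratio was 2.18 (2.02 to 2.36). The exact test counted 3 of the 6, Cd3e, Trbc1 and Cd4, against 3.67% of all genes, and 0 of the 10 after Benjamini-Hochberg adjustment. In the same pair 10 of 12 NK markers and 4 of 12 macrophage markers were past 2-fold higher in FR17, with scaled sums of 3.23-fold (2.98 to 3.51) and 1.59-fold (1.58 to 1.61).

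FR17 and sFD17 share the carrier and differ in the order of the residues of the pentapeptide. FR17 was past 2-fold higher for 8 of the 10 genes, all but Cd3d and Cd8a, against 11.3% of all genes tested and 12.7% in the range. The folds reached 4.70 for Cd4 (3.78 to 5.89) and 4.19 for Trbc1 (2.92 to 6.19), and Cd8a alone had an interval that spanned 1, at 1.13 (0.717 to 1.82). The other 9 intervals lay above 1, where 44.3% of genes in the range did. The summed ratio was 3.08 (2.79 to 3.39), and the exact test counted 7 genes, against 12.7% of all, of which 1, Cd4, was left after Benjamini-Hochberg adjustment. Between these libraries the macrophage markers differed as well, with 8 of 12 past 2-fold higher in FR17 and a scaled sum of 3.51-fold (3.47 to 3.56), as did the NK markers, with 11 of 12 and 3.33-fold (3.04 to 3.66). The scaled sum of the neutrophil markers was 0.683 (0.680 to 0.685). The part of these cells in the receptor counts was not tested.

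Between sFD17 and TP5, which differ in the carrier and in the order of the pentapeptide, 0 genes were past 2-fold in either direction (6.74% of all genes higher, 5.64% lower). With libraries scaled by their totals alone 2 were lower, Trbc1 and Trbc2. Of the 10, 9 had fewer scaled counts in sFD17. The median log2 fold change of the 10 was −0.55, beside −0.19 for genes in the range. The intervals of Cd3d, Cd3g, Trbc1, Trbc2 and Cd4 lay below 1, from 0.565 for Trbc1 (0.367 to 0.854) to 0.696 for Cd3d (0.509 to 0.945), against 30.6% of genes in the range below 1. The remaining 5 intervals spanned 1. For Trac the interval was 0.646 to 1.34, so counting error alone leaves room for folds in that range. The summed ratio was 0.710 (0.634 to 0.793). In this pair 4 of 12 macrophage markers and 2 of 10 dendritic cell markers were also past 2-fold lower in sFD17, with scaled sums of 0.454 (0.448 to 0.460) and 0.638 (0.614 to 0.663), and their part in the receptor counts was not tested.

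The constant genes of the γδ receptor, an alternative to αβ chains on other T cells, were highest in FR17 as well. Trdc, the δ constant gene, had 15 counts in Ctrl, 11 in TP5, 17 in sFD17 and 94 in FR17. FR17 stood alone at 4.61-fold of Ctrl (2.66 to 8.56), an interval that overlaps that of Cd3e. Of the γ constant genes Tcrg-C1 had 11, 16, 8 and 68 counts in Ctrl, TP5, sFD17 and FR17, Tcrg-C4 had 4, 6, 3 and 25, and Tcrg-C2 had 3, 9, 3 and 45, the last at 11.0-fold with a wide interval (3.54 to 55.5). The γ constant genes resemble each other and their reads may be divided differently. Of the list of 5 that these made with Cd8b1, Trdc and Tcrg-C1 were past 2-fold higher in FR17, against 3.92% of all genes tested. Tcrg-C2 and Tcrg-C4 reached 10 counts in FR17 alone and so passed the filter only through the library in which they were high. The ratio of Trac to Trdc counts was 5.33 in Ctrl (3.05 to 9.97), 7 in TP5 (3.70 to 14.6), 3.18 in sFD17 (1.81 to 5.84) and 2.21 in FR17 (1.73 to 2.85), and the interval of FR17 lay below those of Ctrl and TP5.

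Variable, joining and diversity segments, which are joined to the constant genes in T cells, had few counts. Of 260 such genes 112 had a count in any library and 7 passed the filter. Their counts summed to 100 in Ctrl, 124 in TP5, 101 in sFD17 and 318 in FR17, with 45, 50, 41 and 78 different segments seen. FR17 was 2.34-fold above Ctrl (1.86 to 2.96), sFD17 was at 1.29 (0.971 to 1.72) and TP5 at 1.19 (0.910 to 1.57). The segments with the most counts were Trdv4 (7, 5, 11 and 37 in Ctrl, TP5, sFD17 and FR17), Trbv1 (10, 13, 10 and 14) and Trbv13-2 (4, 5, 4 and 17). In sFD17 the interval of the segments lay above that of the 3 constant genes.

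Genes that act next to the receptor moved in part with it. Of 32 such genes 7 were past 2-fold higher and 0 lower in FR17 relative to Ctrl, against 3.92% and 3.58% of all genes tested. The median log2 fold change of the list was 0.49, beside 0.02 over all genes tested. Zap70, the kinase that binds phosphorylated CD3 and ζ chains, had 64 counts in Ctrl, 74 in TP5, 54 in sFD17 and 205 in FR17. Its fold in FR17 was 2.36 (1.77 to 3.17). Lat, the adaptor that Zap70 phosphorylates, had 107, 113, 71 and 347 counts in the same order and was at 2.39-fold (1.92 to 2.99). These 2 and the kinase Txk, at 2.07-fold (1.41 to 3.10), were past 2-fold. The receptors Cd5 and Cd6, which tune T cell signaling, were at 1.89-fold (1.38 to 2.61) and 1.48-fold (1.16 to 1.89). Other genes of the list were lower in FR17. Ptprc, which encodes the phosphatase CD45 of all leukocytes, was at 0.643 in FR17 (0.634 to 0.653) with 38149 counts in Ctrl, and Lcp2, an adaptor shared with myeloid cells, was at 0.695 (0.669 to 0.723). Fyn, a Src-family kinase, was at 1.30 (1.20 to 1.42). The scaled sum of the list was 0.741 of Ctrl (0.733 to 0.748), the opposite direction of its median. In TP5 1 gene of the list was past 2-fold higher (Trat1) and 0 lower, and in sFD17 1 was higher (Ubash3a) and 1 lower (Cd2), names chosen after the values were seen. With 32 genes in the list, these single calls are near the shares over all genes. The shares were 3.2% higher in TP5, and 5.32% higher and 6.47% lower in sFD17.

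Transcription factors of T cells gave 7 of 15 past 2-fold higher and 0 lower in FR17, against 3.92% and 3.58% of all genes tested. Of the 7, Tox reached 10 counts in FR17 alone and passed the filter only through it, which leaves 6. Gata3, a factor of T helper 2 cells and innate lymphoid cells, was at 3.85-fold (2.40 to 6.47), and Foxp3, the factor of regulatory T cells, at 3.90-fold (1.96 to 8.60) from only 10 counts in Ctrl to 53 in FR17. Bcl11b, needed for T cell commitment, was at 2.65-fold (1.92 to 3.73), and Tbx21, a factor of T helper 1 and NK cells, at 2.29-fold (1.68 to 3.17). Tcf7 and Lef1, which act together in T cells, stood at 1.76-fold (1.44 to 2.16) and 1.89-fold (1.21 to 3.04). Zbtb7b, which directs CD4 lineage choice, and Runx3, which directs CD8 lineage choice, were at 0.888 (0.843 to 0.936) and 1.05 (0.945 to 1.17). In TP5 1 factor was past 2-fold lower, Eomes, named for its values, with 15 counts against 39 in Ctrl, and 1 was past 2-fold higher, Tox, from 3 counts to 9, with an interval that spans 1 (0.721 to 16.6). Over all genes tested in TP5 3.2% were higher and 4.99% lower, so 1 call of 15 in each direction is near the background. In sFD17 0 were in either direction (5.32% of all genes higher, 6.47% lower).

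Costimulatory and homing receptors of T cells gave 9 of 18 past 2-fold higher and 0 lower in FR17, against 3.92% and 3.58% of all genes tested. The median log2 fold change of these 18 genes was 1.01. Thy1, a surface protein of T cells and some innate lymphoid cells, had 121 counts in Ctrl, 169 in TP5, 107 in sFD17 and 499 in FR17. It was thus highest in FR17, 3.03-fold of Ctrl (2.48 to 3.73). Icos was at 2.74-fold (2.16 to 3.50) and Cd40lg, the ligand that T cells present to B cells, at 3.74-fold (1.99 to 7.63). Cd28, the main costimulatory receptor, stood at 1.67-fold (1.32 to 2.12) and Il7r, the receptor of interleukin 7, at 1.42-fold (1.23 to 1.64). Il7r was also at 0.583 of Ctrl in sFD17 (0.472 to 0.718). Il2ra, the α chain of the interleukin 2 receptor, named here after its values were seen, was past 2-fold higher with every peptide, with 20, 75, 51 and 122 counts in Ctrl, TP5, sFD17 and FR17. In TP5 2 genes of the list were past 2-fold higher (Il2ra and Ccr4) and 0 lower, and in sFD17 only Il2ra was higher and 0 were lower. Of all genes, 3.2% were higher in TP5 and 5.32% in sFD17, and 1 of 18 is near the latter share. The scaled sum of this list, 0.796 of Ctrl in FR17 (0.780 to 0.813), again ran against its median.

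Markers of NK cells were also higher in FR17. Of 12 NK genes 10 were past 2-fold higher and 0 lower, against 3.92% and 3.58% of all genes tested. Their median log2 fold change was 1.60, and the scaled sum was 2.84-fold of Ctrl (2.62 to 3.07). Ncr1, the activating receptor NKp46, had 25 counts in Ctrl, 13 in TP5, 22 in sFD17 and 106 in FR17. Nkg7, a granule protein of NK and cytotoxic T cells, had 78, 62, 64 and 333. Klrb1c and Klrd1, receptors of NK cells, were at 2.37-fold (1.65 to 3.47) and 1.94-fold (1.54 to 2.46) in FR17. The summed NK counts were 802 in Ctrl, 731 in TP5, 534 in sFD17 and 3093 in FR17. No gene of the list was at 0 in a library. Since Cd247 and Lck are also used by NK cells, these values stand beside theirs, and the part of NK cells in those counts was not tested.

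The remaining marker lists were as follows, beside 3.92% of all genes past 2-fold higher and 3.58% lower in FR17 against Ctrl. In lists this short a single call is near these shares. Type 2 innate lymphoid cell genes gave 2 of 9 tested past 2-fold higher and 1 lower in FR17, with a scaled sum of 1.15-fold (1.08 to 1.22). Il1rl1, the receptor of interleukin 33, was at 1.25-fold (1.10 to 1.41) and Rora, a factor of these cells, at 1.12-fold (0.941 to 1.35). The genes of B and plasma cells gave 1 of 10 higher and 0 lower, and Cd79a and Cd79b, which signal for the B cell receptor, were at 1.47-fold (1.31 to 1.65) and 1.36-fold (1.18 to 1.57) in FR17 and at 1.74-fold (1.55 to 1.95) and 1.71-fold (1.48 to 1.98) in TP5. The 12 neutrophil genes gave 0 higher and 1 lower in FR17, and their scaled sum was 0.897 of Ctrl (0.894 to 0.901). Neither the 10 dendritic cell genes nor the 8 monocyte genes had a member past 2-fold in FR17, and their scaled sums were 1.36-fold (1.32 to 1.41) and 0.946 (0.934 to 0.957). Beside these, the T cell marker list, 5 of whose 12 genes are among the 10, gave 4 higher and 0 lower, with a scaled sum of 1.92-fold (1.78 to 2.08) in FR17. None of these marker genes was at 0 in any library.

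**Figure D4:**
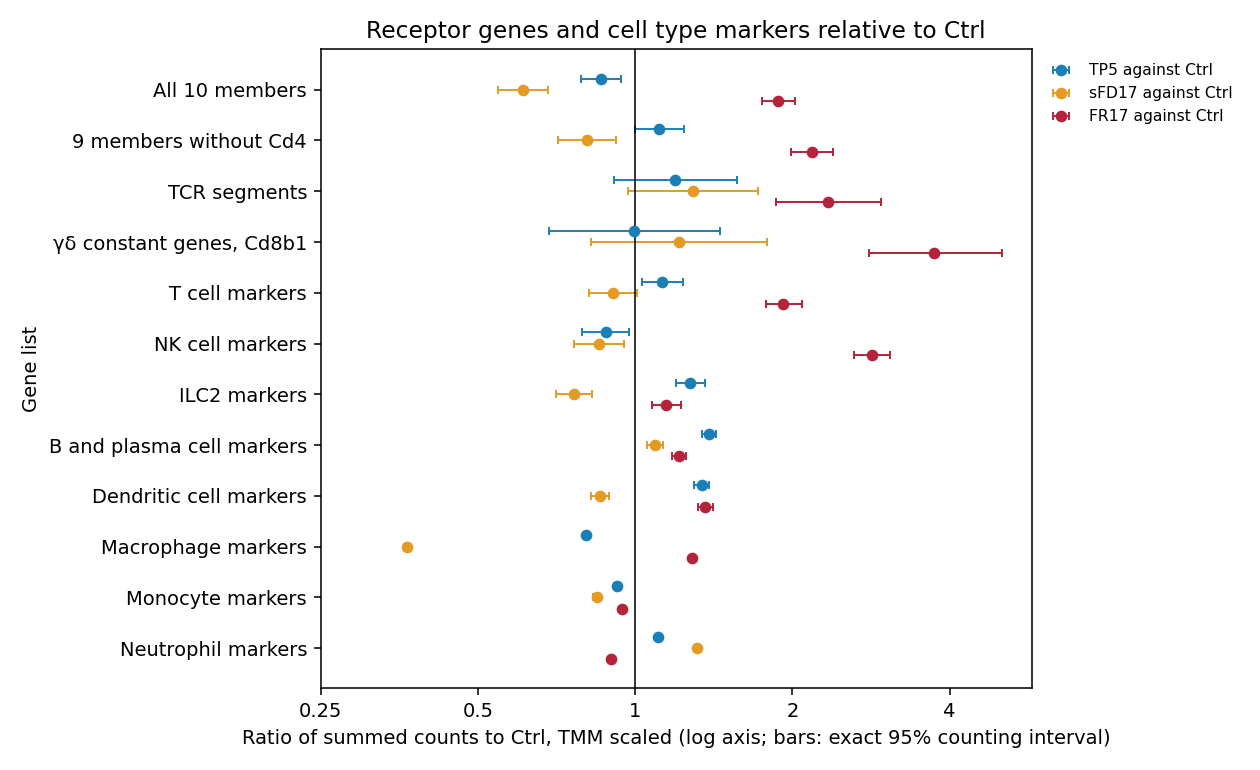
Ratio of summed TMM scaled counts to Ctrl (log axis) for the 10 genes, the 9 without Cd4, the receptor segments and 9 lists of related or marker genes, in TP5, sFD17 and FR17, with exact 95% counting intervals as bars. FR17 lies at 1.88 for the 10 genes, 1.92 for T cell markers and 2.84 for NK markers, and sFD17 is lowest, at 0.366, for macrophage markers. The row of γδ constant genes with Cd8b1 holds 2 genes that passed the filter only through FR17.

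The genes whose pattern over the 4 libraries was most like the mean of the 10 were sought among 11979 other genes with at least 50 counts in a library. Likeness was the Euclidean distance between log2 CPM centred over the 4 libraries, which for 4 points is a description. The nearest were Hyal2 at 0.074, Paqr4 at 0.14, Tacc2 at 0.15, Unc13b at 0.16, Uchl3 at 0.17, and then Ppp3cc, Itm2a and Fkbp7 at 0.18 each. Hyal2 had 76 counts in Ctrl, 76 in TP5, 45 in sFD17 and 214 in FR17. Among the 10 themselves Lck, at 0.21, and Trac, at 0.27, were nearest their own mean, and Cd8a, at 0.93, and Cd4, at 1.03, were farthest from it.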

How the data were processed

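RNA from sorted CD11b+Ly6g+ lung cells was sequenced as 1 library for each of 4 groups, each pooled from 10 to 12 mice. The deposited table holds raw read counts per gene. The submitters' processing notes name HISAT2 2.0.5, StringTie 1.3.3b, featureCounts 1.5.0-p3, edgeR 3.18.1 and GRCm38.p6, without the role or order of each. Library totals were 15543071 to 19638228 counts, and the precision of each value is given by its counting interval.

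A gene was kept if 1 or more libraries held 10 counts of it (16369 of 54532 genes). Counts were scaled by TMM (edgeR 4.0.16, R 4.3.3) and log2 CPM used a prior count of 2. With 1 library a group there is no test over replicates. A gene was called when it differed by at least 2-fold. Folds, shares and levels have 95% Clopper-Pearson, Wilson and Poisson intervals (scipy 1.17.1), for counting error only. The study took p-values from a negative binomial distribution, and edgeR's exact test at an unadjusted 0.05 was run here as an alternative, with a trended dispersion over the 4 libraries as 1 group, and only its calls are given, with no p-value. The code was tested on simulated data. DESeq2 1.42.0 size factors, library totals, other prior counts, filters and thresholds were also tried.

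The 10 genes and all gene lists were chosen with earlier results of these data known. Besides the 10, genes were named by fixed symbols, the 3 segments with the most counts and the 8 most alike genes. Segments are genes whose name starts with the letters of a receptor variable, joining or diversity gene, older Tcrg-V names included, and Tcrg-C1, Tcrg-C2 and Tcrg-C4 were matched to Trgc1, Trgc2 and Trgc4 through RefSeq synonyms. Exon overlaps and the Trbc sequences come from GENCODE M21 and promoters from RefSeq. Protein sequences were not used here, and 1 gene of the fixed symbols is not reported here.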

Additional observations from a re-analysis of the deposited data

How the results depend on the processing

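The 6 comparisons of the summed counts and of the number of genes past 2-fold were recomputed under each alternative. With libraries scaled by their totals alone the summed ratio was 0.526 for sFD17 against Ctrl, 2.23 for FR17 against Ctrl, 2.50 for FR17 against TP5, 0.590 for sFD17 against TP5 and 4.23 for FR17 against sFD17. Genes past 2-fold were then 7 higher for FR17 against Ctrl, 2 lower for sFD17 against Ctrl and 2 lower for sFD17 against TP5. Without Cd4, the gene with the most counts, the summed ratio of TP5 against Ctrl turned from 0.860 to 1.11, and it was 0.809 for sFD17 against Ctrl, 2.18 for FR17 against Ctrl, 1.96 for FR17 against TP5 and 2.69 for FR17 against sFD17. At a 4-fold threshold the genes called were 2 for FR17 against sFD17 and 0 for FR17 against Ctrl, for FR17 against TP5 and, on the lower side, for TP5 and sFD17 against Ctrl. The exact test counted 3 of the genes for FR17 against TP5. With Benjamini-Hochberg adjustment it counted 1 for FR17 against sFD17, Cd4, and 0 for FR17 against Ctrl, FR17 against TP5, and Cd4 in TP5 or sFD17 against Ctrl. DESeq2 size factors, a prior count of 0.5, no filter, 10 counts in every library and an interval beyond 1 left the calls within 1.5 times. Of 180 recomputed log2 fold changes of single genes 176 stayed within the counting interval and 2 changed sign, both near 0 (Trbc2 in TP5 and Cd3e in sFD17, by library totals). Low counts limit what can be said of single genes such as Cd8a and Cd3e, with 25 to 37 counts outside FR17.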

Other observations

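Cd4 stood far from the mean pattern of the receptor genes, so the genes nearest to Cd4 alone were also listed, a choice made after its values were seen. They were Ocln (distance 0.071), Npl (0.13), Prune2 (0.15), Igha (0.17), F13a1 and Nxpe5 (0.20 each), Ttyh2 (0.20) and Etv1 (0.20). F13a1, a coagulation factor gene of monocytes and macrophages, had 5019 counts in Ctrl, 2048 in TP5, 1044 in sFD17 and 8188 in FR17. Igha, the constant gene of immunoglobulin A, had 1337, 677, 366 and 2576 counts in the same order. Ocln, which encodes the tight junction protein occludin, had 55, 25, 12 and 111. The 8 monocyte genes did not share the pattern of F13a1 as a list. Against Ctrl, 5 were higher and 3 lower with TP5, at a median log2 fold change of 0.26. With sFD17, 3 were higher and 5 lower, and 2 were past 2-fold each way. Of the 12 macrophage genes, 11 were lower with TP5 and 12 with sFD17. All of these are values over 4 libraries only, with no test.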
